A study of Rattus norvegicus with 20 samples.

Results

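The 9 genes described here encode core parts of the machinery that releases synaptic vesicles: Snap25, Vamp1, Vamp2, Syt1, Syt2, Syp, Syn1, Sv2a and Sv2b. They were taken by gene symbol from the deposited count table, all 9 were found, and they are 9 of the 39747 genes in that table. RNA came from dorsal root ganglia (DRG) of 14 wild-type female Sprague-Dawley rats, young adults at the start, and each library is 1 ganglion sample from 1 side of 1 rat. Rats ate a soy oil diet (SOD, AIN-93G-based) or a fish oil diet (FOD, enriched in n-3 fatty acids) for 4 weeks before surgery. For chronic constriction injury (CCI) the left sciatic nerve was loosely ligated at 4 places with chromic gut, and in sham surgery (CT) that nerve was exposed but not ligated, so both arms share the exposure. DRG were collected after 1 week of recovery. The diets are also described as kept for 4 weeks after surgery, which is longer than that week, and the length of diet after surgery in the sequenced rats is not settled here. Left DRG came from 4 SOD-CT rats, 3 FOD-CT rats, 3 SOD-CCI rats and 4 FOD-CCI rats, and contralateral (right) DRG from 3 rats of either injured group, which makes 20 libraries. A right DRG comes from an operated, injured rat and is not a naive control. Right DRG of sham rats were not analysed here.

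A neurotransmitter vesicle fuses when Vamp on the vesicle zips together with Snap25 and a syntaxin on the plasma membrane, which forms the SNARE complex. Synaptotagmins such as Syt1 and Syt2 bind calcium and trigger that fusion, synapsins such as Syn1 hold vesicles in clusters, and Syp and the Sv2 proteins sit in the vesicle membrane. Sensory neurons have their cell bodies in the DRG and their release sites in the spinal cord and in the periphery, so the RNA in the ganglion is what the cell bodies make for distant terminals. Vamp1 and Syt2 are known as the forms of fast-conducting neurons with large axons.

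The promoters below are shown for the pair of Vamp paralogs, which gave different values between left and right DRG, and for Sv2b. They are the 250 bases before the annotated start in RefSeq on GRCr8, written 5′ to 3′ on the strand of the gene. Vamp1 is at chr4:159698644-159698893 (plus strand), Vamp2 at chr10:54292539-54292788 (plus strand) and Sv2b at chr1:138562259-138562508 (minus strand). Capitals mark matches, on either strand, to the letters of a GC box (GGGCGG), a cAMP response element (TGACGTCA) or the left part of the RE1 element (CAGCACC).
Vamp1: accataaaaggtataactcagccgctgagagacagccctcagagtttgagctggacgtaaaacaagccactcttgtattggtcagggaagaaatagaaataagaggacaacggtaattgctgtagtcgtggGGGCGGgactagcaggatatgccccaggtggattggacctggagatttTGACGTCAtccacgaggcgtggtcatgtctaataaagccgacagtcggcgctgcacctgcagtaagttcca
Vamp2: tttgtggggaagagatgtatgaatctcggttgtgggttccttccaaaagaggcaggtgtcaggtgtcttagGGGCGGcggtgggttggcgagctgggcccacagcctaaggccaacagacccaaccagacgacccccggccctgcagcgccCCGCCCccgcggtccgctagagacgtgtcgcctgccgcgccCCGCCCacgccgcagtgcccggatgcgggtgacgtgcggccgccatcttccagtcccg
Sv2b: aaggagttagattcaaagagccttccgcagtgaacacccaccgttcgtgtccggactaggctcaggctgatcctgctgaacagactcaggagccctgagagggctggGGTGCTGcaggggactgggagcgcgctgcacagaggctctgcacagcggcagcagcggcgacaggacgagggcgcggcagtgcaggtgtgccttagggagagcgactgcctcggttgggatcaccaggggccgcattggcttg
RefSeq promoters were held for 8 of the 9 genes, all but Snap25. The cAMP response element was found in Vamp1 and Syn1 and in 1.59% of all 33469 promoters searched. The left part of RE1 was found in Sv2b and Syn1 and in 5.43% of all promoters. The GC box was found in Vamp1, Vamp2, Syt1 and Syp and in 30.5% of all promoters. The E-box CAGATG was found in Syt2 and in 14% of all promoters. The AP-1 site TGACTCA (4.05% of all promoters) and the right part of RE1, GGACAG (18.2%), matched none of the 8. A match describes letters in this window and was not tested for binding.

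Libraries held 22547190 to 54437581 counts, and the lowest count of any of the 9 genes in any library was 199 (Sv2a), so the spread between rats and not counting limited the precision. Levels are given as CPM (counts scaled to a common library size) on TMM effective library sizes. The libraries labelled replicate 1 in the 3 FOD groups (FOD-CT, FOD-CCI and FOD-CCI contralateral) stood apart: the summed level of 8 spinal cord glia genes was 2416 to 3636 CPM there and 3.42 to 94.0 CPM in the other 17 libraries. Spinal cord neuron genes (8, summed) were at 844 to 849 CPM there and at 43.3 to 159 CPM elsewhere. In the library labelled FOD-CCI contralateral replicate 1, Isl1, Scn10a, Trpv1, Mrgprd and Prdm12, which define DRG neurons, were all at 0 counts, which goes against its tissue label. In the library labelled FOD-CCI replicate 1, the left DRG of the same rat, 12 nerve injury genes summed to 391 CPM, inside the range of the 13 sham and contralateral libraries (318 to 706 CPM), while the other 6 CCI libraries had 1407 to 3838 CPM. That library therefore goes against its injury label, and the main results are given with and without it. Skeletal muscle genes (10, summed) were at 163190 CPM in SOD-CT replicate 1, 26916 CPM in FOD-CT replicate 2, 9059 CPM in FOD-CCI contralateral replicate 3, 6736 CPM in SOD-CT replicate 4, 2492 CPM in SOD-CCI contralateral replicate 2 and 1856 CPM in FOD-CT replicate 1. They were at 162 to 716 CPM in the other sham and contralateral libraries and at 99.8 to 389 CPM in the 7 CCI libraries. SOD-CT replicate 1 was the lowest of the 20 libraries for 6 of the 9 genes (Vamp1, Vamp2, Syt2, Syp, Syn1 and Sv2a).

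Compared per length, the 9 genes fell into 3 tiers. The deposited FPKM values had medians over 20 libraries of 545 for Snap25, 412 for Vamp1 and 342 for Syp, and the ranges of these 3 overlapped. Vamp2 followed at 114 FPKM (91.2 to 146), apart from Syp above it (lowest 176 FPKM) and from Sv2b below it (highest 80.3 FPKM). Sv2b (49.8), Syt2 (45.3), Syn1 (41.2), Syt1 (20.6) and Sv2a (15.8 FPKM) formed the lowest tier, with overlapping ranges between neighbours. Vamp1 thus stood above Vamp2, its paralog, in all 20 libraries, with a ratio of FPKM values from 1.59 to 7.23. Sv2a was at 236 to 263 CPM in the 3 libraries with spinal cord transcripts and at 12.3 to 101 CPM in the other 17.

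**Figure D1:**
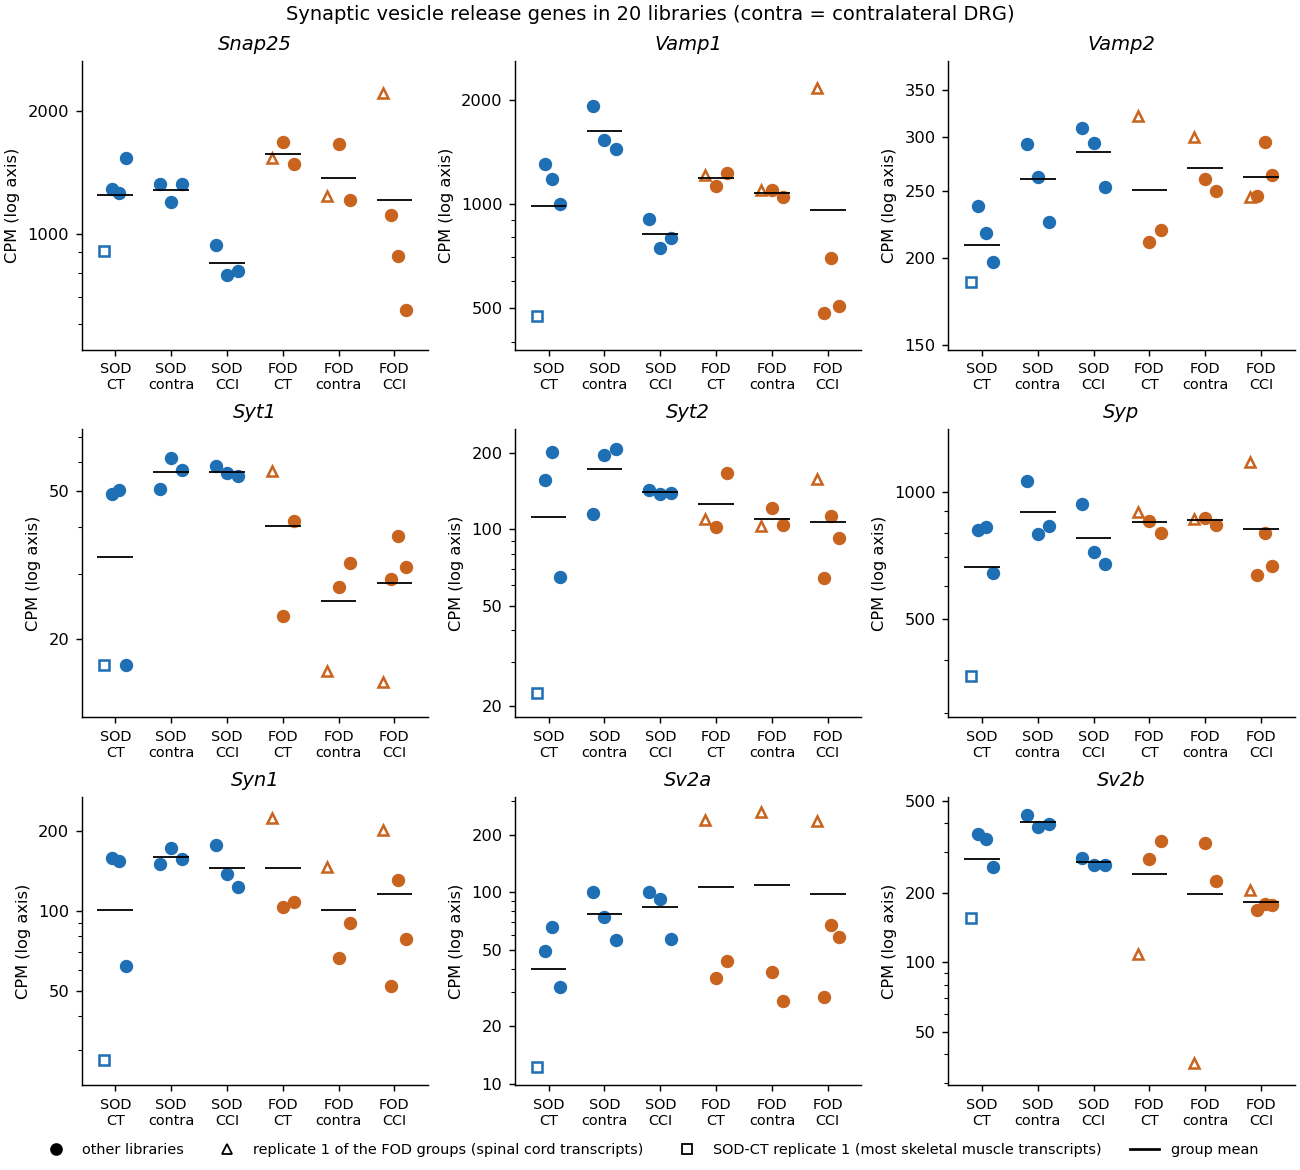
CPM (log axis) of the 9 release genes in every library, by group, with the group mean as a line and replicate 1 of the FOD groups and of SOD-CT as open symbols. Vamp1 was at 745 to 906 CPM in SOD-CCI and at 1441 to 1916 CPM in SOD-CCI contralateral DRG, and the FOD-CCI triangle at 2155 CPM is the library labelled FOD-CCI replicate 1.

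The injured left DRG was compared with the contralateral DRG of the same rat. This contrast joins the ligation with the surgical exposure of the left nerve and does not separate them. Vamp1, Snap25 and Sv2b were lower on the left in 5 of 6 rats, the exception being the rat of FOD-CCI replicate 1. With all 6 rats none of the 9 genes was called by edgeR's quasi-likelihood test, where a call needs an adjusted p of at most 0.1 and a change of at least 1.2-fold. Without that rat these 3 were called lower, with log2 fold changes of -0.93 for Vamp1, -0.61 for Sv2b and -0.56 for Snap25. Vamp2, Syt1, Syn1 and Sv2a were not called, with log2 fold changes between -0.03 and 0.27 in both fits. In bulk tissue, fewer cells of a type and less RNA per cell cannot be told apart.

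Among the SNARE genes, Vamp1 was at 1916, 1530 and 1441 CPM in the contralateral DRG of SOD-CCI replicates 1 to 3 and at 906, 745 and 797 CPM in their left DRG. The left sides held 47.3%, 48.7% and 55.3% of the right, and the 2 sides did not overlap. In FOD-CCI replicates 2 and 3 Vamp1 went from 1095 and 1044 CPM on the right to 483 and 699 CPM on the left, or 44.1% and 67.0%. In the rat of FOD-CCI replicate 1 it was the other way round, 1093 CPM on the right and 2155 CPM on the left. Over 6 rats the log2 fold change of Vamp1 was -0.63 (SE 0.25, edgeR adjusted p = 0.384, unadjusted p = 0.0347), and over 5 rats it was -0.93 (SE 0.14, edgeR adjusted p = 0.00608).

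Snap25, the plasma membrane partner of Vamp, was at 1327, 1195 and 1321 CPM on the right and at 940, 792 and 813 CPM on the left of the 3 SOD-CCI rats. In FOD-CCI replicates 2 and 3 it was at 1659 and 1210 CPM on the right and at 1109 and 883 CPM on the left. These 5 left sides held 61.5% to 73.0% of the right, a narrow range, against 178% in the rat of FOD-CCI replicate 1. Its log2 fold change was -0.33 (SE 0.20, edgeR adjusted p = 0.573) over 6 rats and -0.56 (SE 0.12, edgeR adjusted p = 0.0355) over 5. Vamp2, which can stand in for Vamp1 in the same complex, ran from 94.4% to 118% of the right side in those 5 rats. Its log2 fold change was 0.05 (SE 0.13, edgeR adjusted p = 0.928) over 6 rats and 0.11 (SE 0.13, adjusted p = 0.702) over 5. The ratio of Vamp1 to Vamp2 in FPKM was 5.15 ± 0.30 (SD, n = 3) in SOD-CCI contralateral DRG and 2.37 ± 0.25 (SD, n = 3) in SOD-CCI DRG. In FOD-CCI contralateral replicates 2 and 3 that ratio was 3.46 and 3.43, and in FOD-CCI replicates 2, 3 and 4 it was 1.62, 1.95 and 1.59. It was 7.23 in the library labelled FOD-CCI replicate 1, the highest of the 20.

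Neither calcium sensor was called. Syt1, a low-level sensor here, had a log2 fold change of 0.04 (SE 0.13, edgeR adjusted p = 0.938) over 6 rats and 0.08 (SE 0.14, adjusted p = 0.787) over 5, with 3 rats lower and 3 higher on the left. Syt2 was also lower in 3 rats and higher in 3, from -0.91 to 0.62 on the log2 scale, with -0.16 (SE 0.22, edgeR adjusted p = 0.827) over 6 rats and -0.33 (SE 0.20, adjusted p = 0.409) over 5. For Syt2 the SE leaves room for a change of the size seen in Sv2b, and its correlation with Vamp1 over 20 libraries was 0.64.

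Among the vesicle membrane and cluster genes, Sv2b, which encodes a vesicle glycoprotein, was at 434, 386 and 399 CPM on the right and at 284, 265 and 265 CPM on the left of the SOD-CCI rats. In FOD-CCI replicates 2 and 3 it was at 330 and 226 CPM on the right and at 168 and 180 CPM on the left. The rat of FOD-CCI replicate 1 had 36.7 CPM on the right, in the library without DRG neuron genes, and 206 CPM on the left, a ratio of 561%. The log2 fold change of Sv2b was -0.13 (SE 0.39, edgeR adjusted p = 0.928) over 6 rats and -0.61 (SE 0.14, edgeR adjusted p = 0.0434) over 5. Syp, the vesicle protein synaptophysin, held 73.1% to 95.7% of the right side in the same 5 rats, with a log2 fold change of -0.12 (SE 0.15, edgeR adjusted p = 0.817) over 6 rats and -0.23 (SE 0.13, adjusted p = 0.359) over 5. Syn1 (0.04, SE 0.17, adjusted p = 0.959) and Sv2a (0.17, SE 0.22, adjusted p = 0.808) each varied from rat to rat, Sv2a from 73.6% to 249% of the right side.

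Over 14549 genes tested in the 6 rats, 140 were called (0.962%), and the 9 release genes gave 0 calls by edgeR, 1 gene at an unadjusted p under 0.05 (Vamp1) and 1 call by DESeq2 (Vamp1). The 0.962% is edgeR's. Calls over all genes ran from 10 to 783 across the main fit and the alternatives that kept all 6 rats, DESeq2 among them. In the 5 rats, 499 of 14992 genes were called lower (3.33%), and 3 of the 9 release genes were. The median log2 fold change of the 9 was -0.12 over 6 rats, where the median of all genes was 0.03. Over 5 rats the median of the 9 was -0.23, and the median of all genes in that fit is not given here. No release gene was lower on the left in all 6 rats (2.82% of all genes were), and 4 of 9 were lower in all 5 (Vamp1, Snap25, Sv2b and Syp, against 10.1% of all genes). The rat left out was singled out by marker genes in these same libraries, so the 5-rat fit is a description beside the 6-rat fit.

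**Figure D2:**
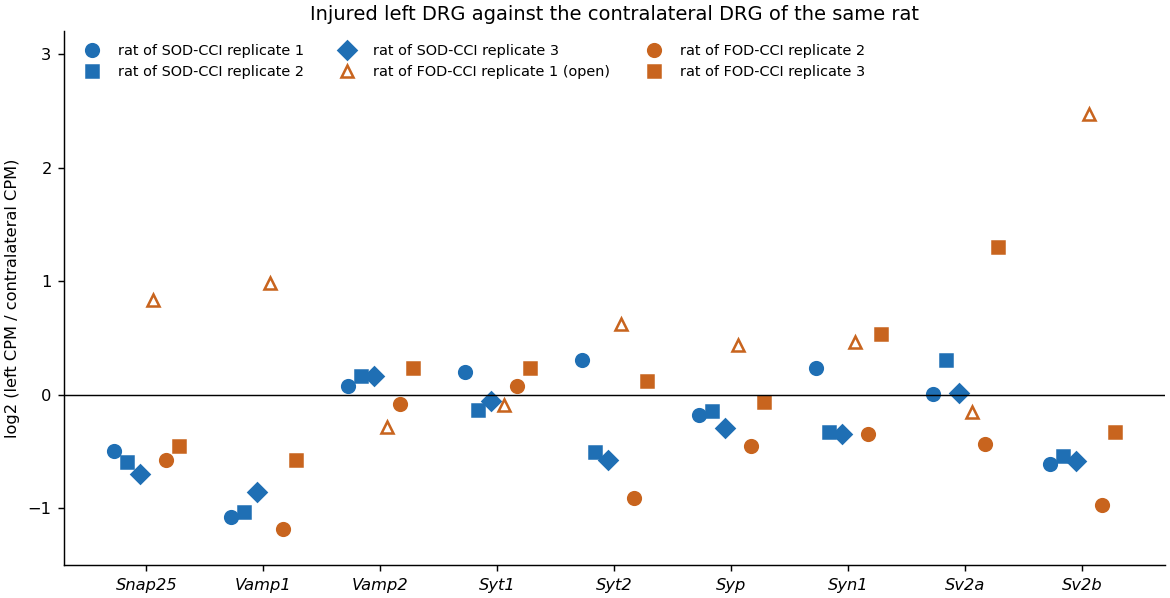
The log2 ratio of CPM in the left DRG to CPM in the contralateral DRG of the same rat for the 9 genes, 1 symbol per rat, SOD in blue and FOD in orange. Filled symbols lie below 0 for Snap25, Vamp1, Syp and Sv2b in all 5 rats, and the open triangle, the rat of FOD-CCI replicate 1, lies above 0 for these 4 genes.

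The same contrast was made within each diet. In SOD-CCI rats Vamp1 had a log2 fold change of -0.98 (SE 0.35, edgeR adjusted p = 0.467), Snap25 of -0.59 (SE 0.28, adjusted p = 0.628) and Sv2b of -0.57 (SE 0.52, adjusted p = 0.845), while Vamp2 was at 0.15 (SE 0.19, adjusted p = 0.896). These 3 SOD-CCI genes were called when only the 6 libraries of SOD-CCI rats entered the fit, so that the FOD rats did not set the spread (edgeR adjusted p = 0.00115 for Vamp1, 0.0395 for Sv2b and 0.0476 for Snap25). Over all genes, calls in SOD-CCI rats ran from 0 to 1461 across the main fit and the alternatives that left out no single rat. The fit of 6 libraries and DESeq2 are among these, and their separate shares are not given here. The left and right libraries of SOD-CCI rats did not overlap for the same 3 genes of 9, where 9.45% of all genes lay lower on the left without overlap. With all rats in the fit 0.131% of all genes were called and none of the 9, with 1 at an unadjusted p under 0.05 and 1 called by DESeq2, both Vamp1. In FOD-CCI rats Vamp1 had a log2 fold change of -0.28 (SE 0.37, edgeR adjusted p = 0.899) with 3 rats and -0.89 (SE 0.21, adjusted p = 0.150) with 2. Snap25 had -0.08 (SE 0.29, adjusted p = 0.964) with 3 rats and -0.52 (SE 0.19, adjusted p = 0.308) with 2. Sv2b changed sign, from 0.30 (SE 0.58, adjusted p = 0.934) to -0.66 (SE 0.22, adjusted p = 0.283). Of all genes 0.0137% were called in FOD-CCI rats and none of the 9 by edgeR or DESeq2, with none at an unadjusted p under 0.05. The difference between the diets in the effect of side was 0.70 for Vamp1 (SE 0.51, edgeR adjusted p = 0.997) with all rats and 0.10 (SE 0.27, adjusted p = 0.999) without the rat of FOD-CCI replicate 1. No gene at all was called for that difference (0%, with 424 genes at an unadjusted p under 0.05 and 60 called by DESeq2), and none of the 9 had an unadjusted p under 0.05.

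Markers of cell types were read beside these values. The 10 large-diameter sensory neuron genes, among which Pvalb marks proprioceptors, were lower on the left for 8 of 10 genes in the 5 rats, with 3 called lower (Pvalb, Etv1 and Ldhb) and 1 called higher (Spp1), and a median log2 fold change of -0.45. Their summed level was 6279 to 8794 CPM in the 6 CCI libraries other than the one labelled FOD-CCI replicate 1 and 7987 to 10651 CPM in the 5 contralateral libraries of those rats. The 10 general neuron genes split 5 lower and 5 higher in the 5 rats, none called, with a median of -0.02. With all 6 rats 9 of those 10 were higher, none called, with a median of 0.25. The 10 macrophage genes were higher for all 10 in both fits, with 2 called over 6 rats and 7 over 5. Pvalb is also a skeletal muscle gene, and the other 6 skeletal muscle genes tested lay at -2.996 to -1.83 in the 5 rats, none called. Skeletal muscle genes in contralateral DRG summed to 173 to 386 CPM in SOD-CCI replicates 1 and 3 and FOD-CCI replicate 2. They summed to 2492 CPM in SOD-CCI replicate 2 and to 9059 CPM in FOD-CCI replicate 3. In the order named, the left side of these 5 rats held 47.3%, 55.3%, 44.1%, 48.7% and 67.0% of the right for Vamp1. Divided by the geometric mean of the 10 neuron genes, Vamp1 was lower on the left in 5 of 5 rats, at -1.30 to -0.76 on the log2 scale, as were Sv2b (-0.83 to -0.49), Snap25 (-0.79 to -0.20) and Syp (-0.41 to -0.07). The 10 neuron genes themselves ran from -0.43 (Rbfox3) to 0.52 (Elavl3) in the 5 rats. This ratio therefore cannot separate the share of neurons from RNA per neuron. The part of neuron content, large-diameter neurons or skeletal muscle in the values of Vamp1 was not tested.

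**Figure D3:**
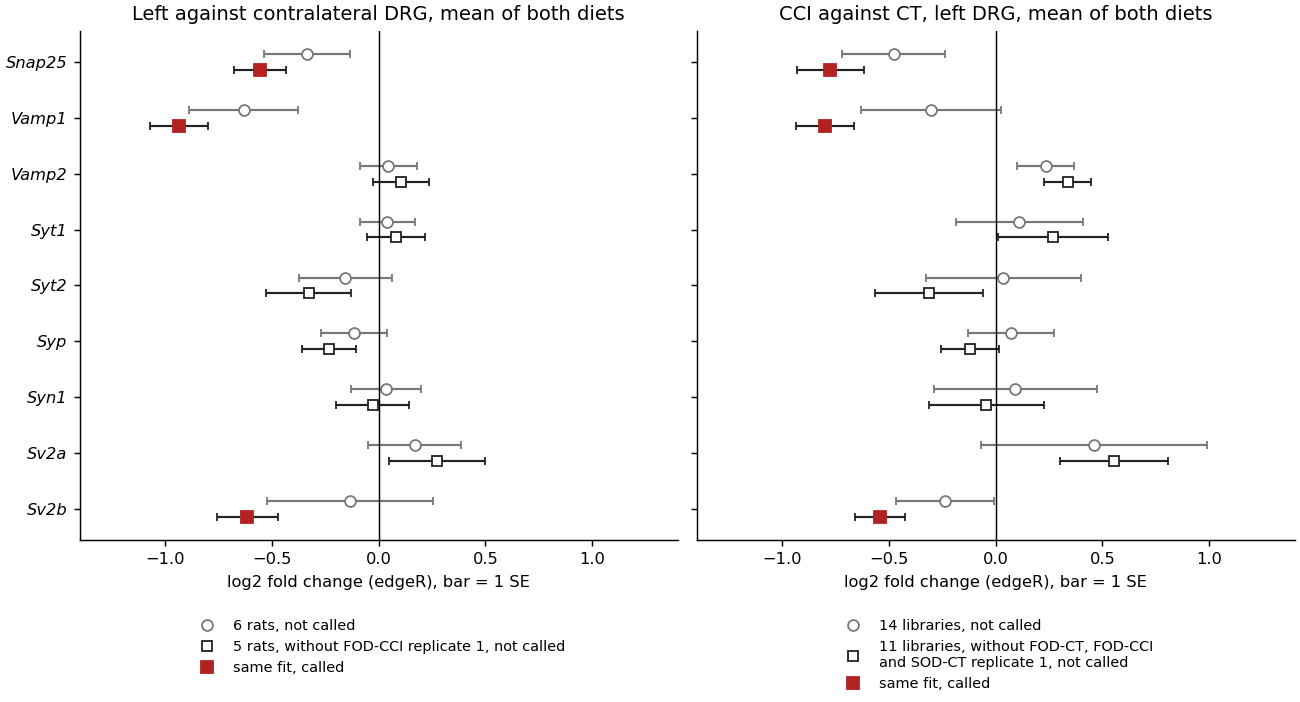
Log2 fold changes from edgeR with 1 SE for the 9 genes, left against contralateral DRG (left panel) and CCI against CT in left DRG (right panel), with all libraries (circles) and without those named in the legend (squares). Red squares are called genes: Vamp1, Snap25 and Sv2b lie below 0 in both panels, and Vamp2 lies above 0 in each fit.

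CCI was also compared with sham surgery between rats, in the 14 left libraries. With all of them the mean over both diets was -0.48 for Snap25 (SE 0.24, edgeR adjusted p = 0.472), -0.30 for Vamp1 (SE 0.33, adjusted p = 0.771), -0.24 for Sv2b (SE 0.23, adjusted p = 0.739) and 0.23 for Vamp2 (SE 0.13, adjusted p = 0.526). None of the 9 was called in this comparison by edgeR or DESeq2, none had an unadjusted p under 0.05 in edgeR, and none of all 14484 genes was called by edgeR (0%, with 1661 genes at an unadjusted p under 0.05 and 476 called by DESeq2). Sham levels of Vamp1 were 474, 1307, 1179 and 997 CPM in SOD-CT and 1210, 1125 and 1225 CPM in FOD-CT. The 3 SOD-CCI libraries at 745 to 906 CPM lay under every SOD-CT library but replicate 1, the one with the most skeletal muscle transcripts. FOD-CCI replicates 2, 3 and 4, at 483, 699 and 508 CPM, lay under all 3 FOD-CT libraries, and FOD-CCI replicate 1, at 2155 CPM, lay above them. Without replicate 1 of both groups, Snap25, Syp and Sv2b also lay lower in FOD-CCI without overlap, and Vamp2 lay higher. The share of all genes lying so is not given here.

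Without the 2 left libraries that carried spinal cord transcripts Snap25 was called lower (-0.72, SE 0.18, edgeR adjusted p = 0.0727), where 1.25% of all genes were called lower. Without SOD-CT replicate 1 as well, which left 11 libraries, Vamp1 (-0.80, SE 0.14, edgeR adjusted p = 0.00727), Snap25 (-0.77, SE 0.16, adjusted p = 0.0165) and Sv2b (-0.54, SE 0.12, adjusted p = 0.0214) were called lower, 3 of the 9 where 3.44% of all genes were called lower. Vamp2 was at 0.34 in that fit (SE 0.11, adjusted p = 0.117). The same 3 genes were called lower in FOD-CCI against FOD-CT alone, with log2 fold changes of -1.08 for Vamp1, -0.86 for Snap25 and -0.83 for Sv2b (edgeR adjusted p = 0.0312, 0.0940 and 0.0419), where 1.57% of all genes were. In SOD-CCI against SOD-CT they were not called in that fit, with -0.69 for Snap25 (SE 0.21, edgeR adjusted p = 0.194), -0.52 for Vamp1 (SE 0.19, adjusted p = 0.268) and -0.25 for Sv2b (SE 0.16, adjusted p = 0.543). That fit still held FOD-CT replicate 2 and SOD-CT replicate 4, sham libraries with skeletal muscle transcripts. Without these as well, which left 9 libraries and 1 of FOD-CT, assumed to vary like the others, 4 of the 9 were called lower over both diets, where 3.07% of all genes were: Vamp1 (-0.88), Snap25 (-0.68), Sv2b (-0.67) and Syt2 (-0.64), with edgeR adjusted p of 0.0149, 0.0750, 0.0104 and 0.0676. In FOD-CCI against FOD-CT this smallest set called Vamp1 (-1.14, edgeR adjusted p = 0.0696) and Sv2b (-0.96, adjusted p = 0.0449), where 1.01% of all genes were called lower, and Snap25 lost its call (-0.77, SE 0.29, adjusted p = 0.278). These sets of libraries were chosen after the data were seen, and the CCI libraries are, but for FOD-CCI replicate 4, the same left DRG as in the within-rat contrast.

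With all libraries SOD-CCI against SOD-CT gave -0.58 for Snap25 (SE 0.34, edgeR adjusted p = 0.457) and 0.41 for Vamp2 (SE 0.19, edgeR adjusted p = 0.352, unadjusted p = 0.0446), the 1 gene of the 9 with an unadjusted p under 0.05. Vamp2 was at 254 to 309 CPM in SOD-CCI and at 185 to 238 CPM in SOD-CT, and the groups did not overlap. Syt1 also had higher values in SOD-CCI without overlap (0.74, SE 0.42, edgeR adjusted p = 0.435). These are 2 of the 9, where 10.9% of all genes lay higher in SOD-CCI without overlap. FOD-CCI against FOD-CT gave -0.38 for Snap25 (SE 0.34, edgeR adjusted p = 1.00) and 0.06 for Vamp2 (SE 0.19, adjusted p = 1.00), with none of the 9 at an unadjusted p under 0.05. In both comparisons 0% of all genes were called by edgeR, with 2006 and 654 genes at an unadjusted p under 0.05 and 571 and 9 called by DESeq2, none of them a release gene.

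Diet was compared within each surgery and side. Syt1 gave lower values in fish oil rats after CCI without passing the test, at 15.3, 29.1, 37.8 and 31.3 CPM in FOD-CCI and at 58.5, 56.0 and 55.04 CPM in SOD-CCI. The groups did not overlap, and the log2 fold change was -0.99 (SE 0.42, edgeR adjusted p = 0.859, unadjusted p = 0.0329). The contralateral DRG of the same rats gave 16.4, 27.6 and 32.03 CPM on FOD and 50.8, 61.4 and 57.3 CPM on SOD, again with no overlap, and a log2 fold change of -1.12 (SE 0.46, edgeR adjusted p = 0.697, unadjusted p = 0.0288). Without the libraries with spinal cord transcripts and SOD-CT replicate 1 these Syt1 values were -0.78 (edgeR adjusted p = 0.389) and -0.90 (edgeR adjusted p = 0.462). In sham rats Syt1 did overlap between diets, with 17.01, 49.1, 50.3 and 17.01 CPM in SOD-CT and 56.6, 23.0 and 41.6 CPM in FOD-CT. Sv2b was the other gene lying lower in FOD-CCI without overlap (168 to 206 CPM against 265 to 284 CPM, log2 fold change -0.57, SE 0.32, edgeR adjusted p = 0.859). These are 2 of the 9 genes where 7.28% of all genes lay lower in FOD-CCI without overlap. Without FOD-CCI replicate 1 they were 4 of 9 (Syt1, Sv2b, Syt2 and Vamp1), where 11.4% of all genes lay so. In the fit of 9 libraries, with the same 6 CCI libraries and fewer sham libraries to set the spread, Syt1 (-0.79, edgeR adjusted p = 0.0571) and Sv2b (-0.63, adjusted p = 0.0629) were called lower, where 0.884% of all genes were. In the contralateral DRG 4 of the 9 lay lower on FOD without overlap (Syt1, Sv2b, Vamp1 and Syn1), where 9.33% of all genes did, and 5 of 9 without FOD-CCI contralateral replicate 1 (Sv2a as well), where 15.9% did.

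With all libraries no diet comparison called any gene by edgeR (0% each in FOD-CCI against SOD-CCI, FOD-CT against SOD-CT, FOD-CCI contralateral against SOD-CCI contralateral and the interaction of diet and injury). At an unadjusted p under 0.05 there were 782, 491, 995 and 725 genes, among the 9 only Syt1 in the first and the third, and DESeq2 called 2, 0, 58 and 2 genes, none of the 9. Beside these values the libraries differed in how levels went with gene length. The rank correlation, over 14435 genes, of a gene's length with its log2 level relative to all libraries was 0.17 to 0.29 in SOD-CCI and -0.26 to 0.00 in FOD-CCI, and -0.16 to 0.36 in SOD-CCI contralateral and -0.31 to -0.02 in FOD-CCI contralateral DRG. Syt1 is the shortest of the 9 genes (1896 bases) and Sv2b the longest (5199 bases). The part of this trend in the values of either gene was not tested.

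Contralateral DRG were last compared with sham DRG, which asks whether the uninjured side of an injured rat differs from the exposed left side of a sham rat. In SOD rats Vamp1 was not called but had higher values in contralateral DRG, at 1441 to 1916 CPM against 474 to 1307 CPM in SOD-CT, with a log2 fold change of 0.68 (SE 0.30, edgeR adjusted p = 0.700, unadjusted p = 0.0424). It was 0.47 (SE 0.19, edgeR adjusted p = 0.795) without the libraries with spinal cord transcripts and SOD-CT replicate 1. Vamp1, Syt1 and Sv2b, 3 of the 9, lay above SOD-CT without overlap, where 5.25% of all genes did. In FOD rats Vamp1 was at 1044 to 1095 CPM in contralateral DRG and 1125 to 1225 CPM in FOD-CT, a log2 fold change of -0.13 (SE 0.32, edgeR adjusted p = 1.00). None of the 9 and none of all 14007 genes was called in either comparison by edgeR (0% each, with 989 and 239 genes at an unadjusted p under 0.05 and 52 and 0 called by DESeq2, none of the 9), and Vamp1 in SOD rats was the only one of the 9 at an unadjusted p under 0.05.

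The other genes of vesicle release were read as 5 lists, left against contralateral DRG. Over the 6 rats 1 gene of these lists was called, Syt4, a synaptotagmin of dense-core vesicles that is known to respond to activity. In that fit 0.962% of all genes were called in either direction. Syt4 was higher on the left in 6 of 6 rats, at 1182, 980 and 887 CPM against 766, 347 and 367 CPM in SOD-CCI rats and at 314, 688 and 1302 CPM against 215, 400 and 361 CPM in FOD-CCI rats. Its log2 fold change was 1.10 (SE 0.20, edgeR adjusted p = 0.0758) over 6 rats and 1.23 (SE 0.19, edgeR adjusted p = 0.00824) over 5. Over the 5 rats 8 genes of the lists were called, where 7.64% of all genes were called in either direction. Higher were Syt4 and Stx1a, the plasma membrane syntaxin that pairs with Snap25 and Vamp (1.07, SE 0.19, edgeR adjusted p = 0.0164), which was at 161% to 320% of the right side in these rats. Lower were Doc2a (-1.63), Syt12 (-1.14), Syt3 (-1.03), Rab3a (-0.74), Sh3gl2 (-0.78) and Cadps2 (-0.59), with edgeR adjusted p from 0.0142 to 0.0752. Doc2a and Syt3 encode calcium sensors, Rab3a a vesicle GTPase, Sh3gl2 the endocytic protein endophilin and Cadps2 a priming factor of dense-core vesicles.

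By list, 1 of 16 fusion and SNARE partners was called in the 5 rats, 5 of 12 tested other synaptotagmins and calcium sensors (1 higher and 4 lower), 1 of 15 priming and active zone genes, 0 of 10 other vesicle membrane and cluster genes and 1 of 9 endocytosis genes. The 0 of 10 is edgeR's, and 2 of those 10 had an unadjusted p under 0.05. Median log2 fold changes of these lists over 5 rats were -0.10, -0.53, 0.20, -0.18 and -0.11 in that order. Over 6 rats the highest values beside Syt4 were Erc2 (1.23) and Unc13b (1.03), and the lowest were Doc2a (-1.39), Syt12 (-0.77) and Syt3 (-0.73), none of the 5 called, with edgeR adjusted p from 0.128 to 0.638. Rest, the repressor that binds RE1 elements, had a log2 fold change of 0.25 (SE 0.38, edgeR adjusted p = 0.841) over 6 rats, at 1.97 to 11.5 CPM over the 20 libraries.

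**Figure D4:**
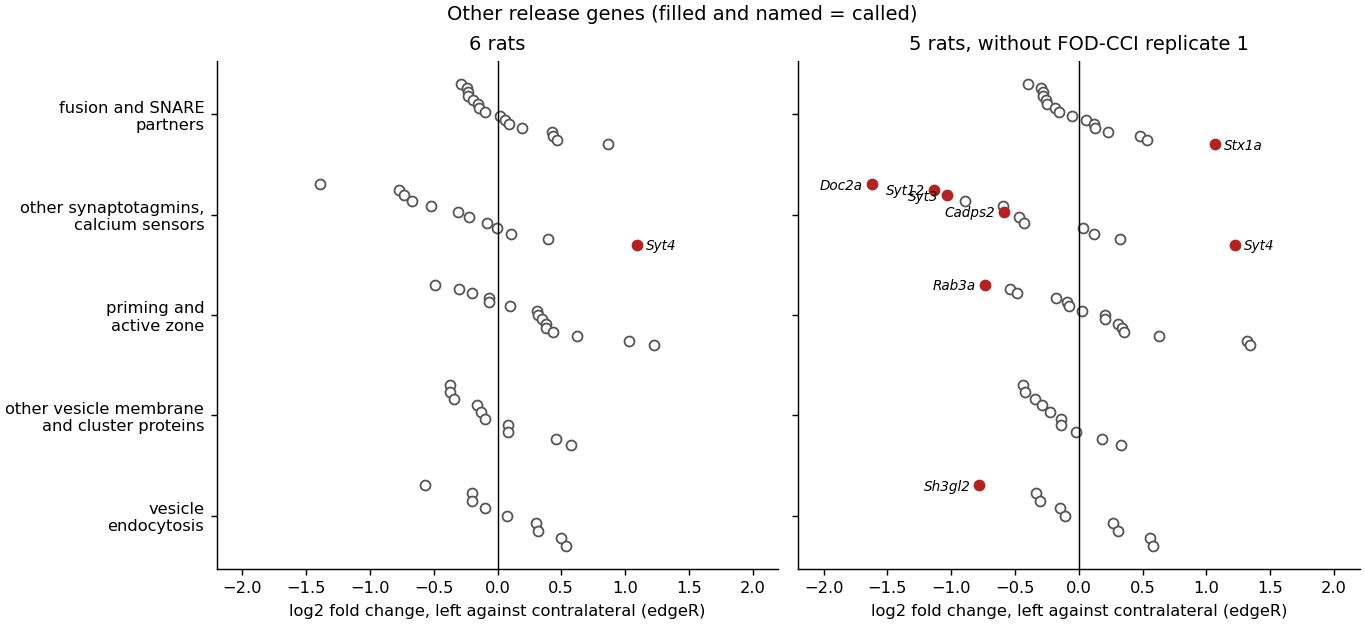
Log2 fold changes from edgeR, left against contralateral DRG, of each tested gene in 5 lists of other release genes, with 6 rats (left panel) and 5 rats (right panel). Filled, named points are called: Syt4 at 1.10 in the first, and 8 genes from Doc2a at -1.63 to Syt4 at 1.23 in the second.

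Across libraries the 9 genes did not vary as 1 block. The correlation of log2 CPM over 20 libraries was 0.83 between Syt2 and Syn1, 0.82 between Syn1 and Sv2a and 0.74 between Snap25 and Vamp1, but -0.32 between Snap25 and Syt1 and -0.36 between Sv2a and Sv2b. Over the 17 libraries without spinal cord transcripts Vamp1 and Sv2b had the highest correlation of any pair, 0.94, and over all 20 it was 0.32. Among the genes whose levels were most like the mean of the 9, by Pearson correlation over 20 libraries, were Ncdn (0.96), Lpcat4 (0.95), Mapk8ip2 (0.94) and Fbxo21 (0.94). These correlations share the libraries' differences in tissue content and are given as a description.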

How the data were processed

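RNA from 20 DRG libraries of 14 rats was measured by poly(A) RNA sequencing. Per the study's methods and the submitters' processing notes, the authors used fastp for trimming, HISAT2 for alignment and featureCounts 1.5.0-p3 for gene counts, and the deposited counts are whole numbers, not scaled. The deposited FPKM values are the authors' counts scaled for gene length and library size, used here only for levels between genes. The genome build and the use of strand are not given in the sources used here, so reads of overlapping and antisense genes cannot be told apart. Libraries were grouped by GEO's titles.

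Counts were tested in R 4.3.3 with edgeR 4.0.16 (limma 3.58.1), TMM scaling and its quasi-likelihood test (two-sided). A gene was tested in a fit where 90% or more of the libraries held 10 or more counts. The 14 left libraries, the 12 libraries of rats with both sides (rat as block) and the 13 sham and contralateral libraries were fitted separately, 13 comparisons in all. A call needed a change of 1.2-fold or more and a p, adjusted over all genes tested (Benjamini-Hochberg), no higher than 0.1. The SE is the log2 fold change divided by the root of F. Left and right DRG of a rat deviated together (correlation 0.11 to 0.43 in all 6 rats). FOD-CT libraries deviated with FOD-CCI and FOD-CCI contralateral libraries of the same number (0.18 to 0.57) although the labels give other rats, and the block on number is an alternative there. In the fits without a block the p-values measure the spread of levels between rats of a group. In the fit with rat as block they measure how the difference between sides varies from rat to rat. Each library is 1 side of 1 rat.

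All 9 genes were described in every comparison. Other release genes were named when called, or as the 3 highest and 3 lowest by left against contralateral. The 5 genes most alike were taken by correlation with the mean z score of the 9. One of them is not reported here. The members, lists and rules were chosen with earlier results of these data known. Alternatives were DESeq2 1.42.0 (Wald test), its size factors in edgeR, no filter on low counts, another use of the replicate block, leaving out each library, only the groups compared, and leaving out libraries with spinal cord transcripts. Leaving out SOD-CT replicate 1 too, and then SOD-CT replicate 4 and FOD-CT replicate 2 (left DRG only), was added after the data were seen. The test was tried on simulated data. No column of the files was left without a sample (0).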

Additional observations from a re-analysis of the deposited data

Results flagged for a closer look

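Among the 9 release genes in the 2 groups with 4 libraries (18 tests), 1 value stood far from its group. Vamp1 was at 2155 CPM in the library labelled FOD-CCI replicate 1, against 483, 699 and 508 CPM in the other 3 FOD-CCI libraries. The gap to the nearest of them was 0.871 of the whole range, above the 95% limit of 0.829 for 4 samples. Chance alone flags about 1 in 20 such tests. That library carried spinal cord transcripts and nerve injury genes at the sham level, as given in the report, and the part of either in its Vamp1 level was not tested.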

How the results depend on the processing

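With all libraries none of the 9 genes was called in any of the 13 comparisons by edgeR, and that count of 0 changed in 5 of them. For left against contralateral DRG over both diets, the count was 1 with DESeq2 (Vamp1) and 0 to 3 when single rats were left out, with 3 (Vamp1, Snap25, Sv2b) without FOD-CCI replicate 1. For SOD-CCI rats alone it was 1 with DESeq2, 3 with only the groups compared and 0 to 1 when single rats were left out, with 1 (Vamp1) without FOD-CCI replicate 1. For CCI against CT over both diets it was 1 without the libraries with spinal cord transcripts, 3 without those and SOD-CT replicate 1, 4 (Syt2 as well) without SOD-CT replicate 4 and FOD-CT replicate 2 too, and 0 to 1 when single libraries were left out, with 1 (Snap25) without FOD-CCI replicate 1. For FOD-CCI against FOD-CT these last 2 sets of libraries gave 3 and 2, and for FOD-CCI against SOD-CCI they gave 0 and 2 (Syt1, Sv2b).

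Of the log2 fold changes of single genes under an alternative, 605 kept direction and side of the threshold, 22 passed it and 29 changed sign, none of them called. When single rats were left out, left against contralateral values over both diets ran from -0.014 to 0.082 for Syt1, -0.33 to 0.056 for Syt2, -0.020 to 0.11 for Vamp2, -0.065 to 0.18 for Syn1, -0.089 to 0.34 for Sv2a and -0.61 to 0.25 for Sv2b. In FOD-CCI rats they ran from -0.89 to 0.19 for Vamp1, -0.52 to 0.18 for Snap25, -0.66 to 1.07 for Sv2b and -0.18 to 0.068 for Vamp2, and the diet difference of Sv2b from -0.085 to 1.64. Leaving out single libraries gave -0.050 to 0.28 for Vamp2 in FOD-CCI against FOD-CT, and in FOD-CT against SOD-CT -0.057 to 0.55 for Syt1 and -0.0084 to 1.83 for Sv2a. In FOD-CT against SOD-CT, Syt1 was -0.056 and Sv2a -0.0077 without the libraries with spinal cord transcripts, -0.25 and -0.29 without SOD-CT replicate 1 too, and -0.24 and -0.39 without SOD-CT replicate 4 and FOD-CT replicate 2 as well. The cause of these changes was not tested.

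Without the rat as replicate block, left against contralateral values in FOD-CCI rats were 0.023 for Vamp1, 0.015 for Snap25 and -0.12 for Sv2b, and over both diets 10 genes of all were called instead of 140. Blocking on the replicate number gave 1 gene of all instead of 0 in SOD-CCI against SOD-CT and in CCI against CT, and neither use of the block changed the call of any of the 9 genes. Over all genes, calls for left against contralateral DRG over both diets ran from 8 to 1146 when single rats were left out and from 10 to 783 under the other alternatives. No gene of the 9 was limited by its counts, which were 199 or more in every library.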
